A study of Mus musculus with 12 samples.

Results

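The genes described here are 6 signal transducers and activators of transcription (Stat2, Stat3, Stat4, Stat5a, Stat5b and Stat6) and 3 Janus kinases (Jak1, Jak2 and Tyk2), 9 of the 19938 genes that the arrays named. The rule that picks them uses gene names and no measured value, though the set was proposed with results of these data known. A member was taken from the probe sets that carry its symbol and no other, and each of the 9 had 1 such probe set.

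RNA of cultured primary microglia from mice, the macrophages that reside in brain tissue, was read on 12 arrays of the type Affymetrix Mouse Gene 1.0 ST. Wild-type cells and cells labelled TLR4 knockout, which by that label lack the toll-like receptor that senses bacterial endotoxin, spent 24 h in hypoxic or hypoglycemic medium (called ischemia here) or in control medium. Every culture, controls included, then had 24 h of reperfusion under control conditions, so all values describe cells after recovery. The 4 groups, each of 3 arrays numbered 1 to 3, were control and ischemia in the wild type and control and ischemia among the arrays called knockout-labelled below. The labels name no age, strain or knockout allele, and whether replicate arrays stand for separate mice or cultures is not stated. The p-values below therefore measure spread between arrays that may be technical repeats. The titles and the series key put 3 arrays in the wild-type ischemia group whose source name reads control normoxia, and the titles were followed. Tlr4 itself read 8.74 ± 0.18 log2 (SD, n = 6) in wild-type arrays and 8.71 ± 0.22 (SD, n = 6) in the arrays labelled as knockout, and where its probe set lies relative to the altered part is not given. Every genotype statement below thus rests on the labels, hence the name knockout-labelled.

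Cytokine receptors carry Janus kinases on their inner tails. When a cytokine draws receptor chains together, the kinases phosphorylate each other and the receptor, STAT proteins dock there and are phosphorylated in turn, and the paired STATs enter the nucleus and bind promoters. Type I interferon receptors use Jak1 and Tyk2, and Stat2 joins the DNA-binding protein Irf9 in the complex ISGF3, which turns on antiviral genes. Interleukin-6 family cytokines act largely through Stat3, interleukin-12 through Stat4, growth factors such as GM-CSF through Jak2 and Stat5, and interleukin-4 and interleukin-13 through Stat6. In microglia these routes are known for interferon responses and for shifts between inflammatory and repair states.

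The deposited values were log2 signals, and differences below are differences of log2 signal. Of 12 microglia markers, 11 were on the array and all 11 lay above the 5.36 log2 below which a gene was left untested. Their mean level was 8.86 to 9.70 in wild-type control, 8.96 to 9.68 in wild-type ischemia, 9.05 to 9.08 in knockout-labelled control and 8.83 to 8.99 in knockout-labelled ischemia arrays. The arrays numbered 2 of both wild-type groups had the 2 highest values. The extraction protocol names myocytes, and all 10 myocyte markers also lay above 5.36, with a mean level between 6.15 and 6.42 over the 12 arrays. The marker means of the oligodendrocyte lineage (6.623 to 7.229) and endothelial cells (6.71 to 7.125) were above that level. The monocyte and border macrophage mean (6.747 to 7.233) was as well. Those of astrocytes (6.165 to 6.646) and of fibroblasts and mural cells (5.674 to 6.32) overlapped it. Those of neurons (5.294 to 5.666), lymphocytes and natural killer cells (4.986 to 5.192) and neutrophils (5.075 to 5.462) were below it. Knockout-labelled control array 3 stood furthest from the others, with a median correlation of 0.976 over all probe sets against 0.982 to 0.987 for the rest.

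Promoters of the members are shown because several STAT genes are known targets of the pathway they serve. RefSeq (GRCm38.p6) gave windows from 250 bases before to 50 bases after a gene's start for all 9 members. Both strands were searched for the core of the interferon-stimulated response element, GAAA followed by any 2 bases and GAAA, which ISGF3 is known to bind, and for the STAT site, TTC and GAA with any 3 or any 4 bases between them. The element core was in 3.44% of all 32851 promoter windows, the STAT site with 3 bases in 8.30% and that with 4 bases in 6.95%. Among members the element core occurred in Stat2 and in 1 of the 2 Stat4 windows, the site with 3 bases in none and the site with 4 bases in Stat2. The Stat2 window lies at chr10:128270248-128270547 (plus strand), the Stat4 window with a match at chr1:52007990-52008289 (plus strand), and the Jak2 window, shown as one with no match, at chr19:29251553-29251852 (plus strand). Capitals mark the matched motifs.
Stat2 promoter: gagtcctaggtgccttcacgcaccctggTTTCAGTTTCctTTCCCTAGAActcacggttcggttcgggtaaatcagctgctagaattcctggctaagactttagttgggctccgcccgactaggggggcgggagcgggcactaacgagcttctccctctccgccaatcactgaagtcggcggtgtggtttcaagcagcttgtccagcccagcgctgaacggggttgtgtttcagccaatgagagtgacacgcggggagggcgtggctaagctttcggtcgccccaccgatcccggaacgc
Stat4 promoter: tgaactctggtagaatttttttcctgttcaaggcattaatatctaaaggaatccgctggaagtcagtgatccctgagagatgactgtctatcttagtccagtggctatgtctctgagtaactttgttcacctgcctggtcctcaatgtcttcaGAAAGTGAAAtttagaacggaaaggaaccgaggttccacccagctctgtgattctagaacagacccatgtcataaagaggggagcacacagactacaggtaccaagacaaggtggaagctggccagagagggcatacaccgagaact
Jak2 promoter: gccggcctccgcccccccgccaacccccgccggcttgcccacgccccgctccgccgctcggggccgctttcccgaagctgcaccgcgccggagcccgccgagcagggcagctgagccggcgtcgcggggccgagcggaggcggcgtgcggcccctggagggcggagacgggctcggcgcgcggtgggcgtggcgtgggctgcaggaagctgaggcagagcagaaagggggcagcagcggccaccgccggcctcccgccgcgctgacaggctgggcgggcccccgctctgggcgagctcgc
In Stat2 the element core starts 222 bases before the start site on the minus strand, and the STAT site with 4 bases starts 210 bases before it. In Stat4 the element core starts 97 bases before the start. The Jak2 window is 81.0% G and C, against 59.3% for Stat2 and 46.0% for this Stat4 window. A match of letters is a description of the window and not a bound site.

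Stat2 was the member that differed most between groups. Its log2 signal on wild-type control arrays 1, 2 and 3 was 9.15, 10.26 and 9.33, and on wild-type ischemia arrays 10.20, 11.32 and 9.89. On the knockout-labelled arrays it was 8.79, 8.77 and 8.62 in control and 8.64, 8.67 and 8.69 after ischemia. All 6 wild-type arrays thus lay above all 6 knockout-labelled arrays. Among all genes, the genotypes did not overlap for 9.89% in control cells and for 16.5% after ischemia. The share separated over all 12 arrays was not counted. Within the wild type the 2 groups overlapped, because control array 2 read higher than ischemia arrays 1 and 3, while each ischemia array read higher than the control array of its own number. The wild-type values were spread far wider, with an SD of 0.60 in control and 0.76 after ischemia, against 0.094 and 0.025 in the knockout-labelled groups.

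**Figure D1:**
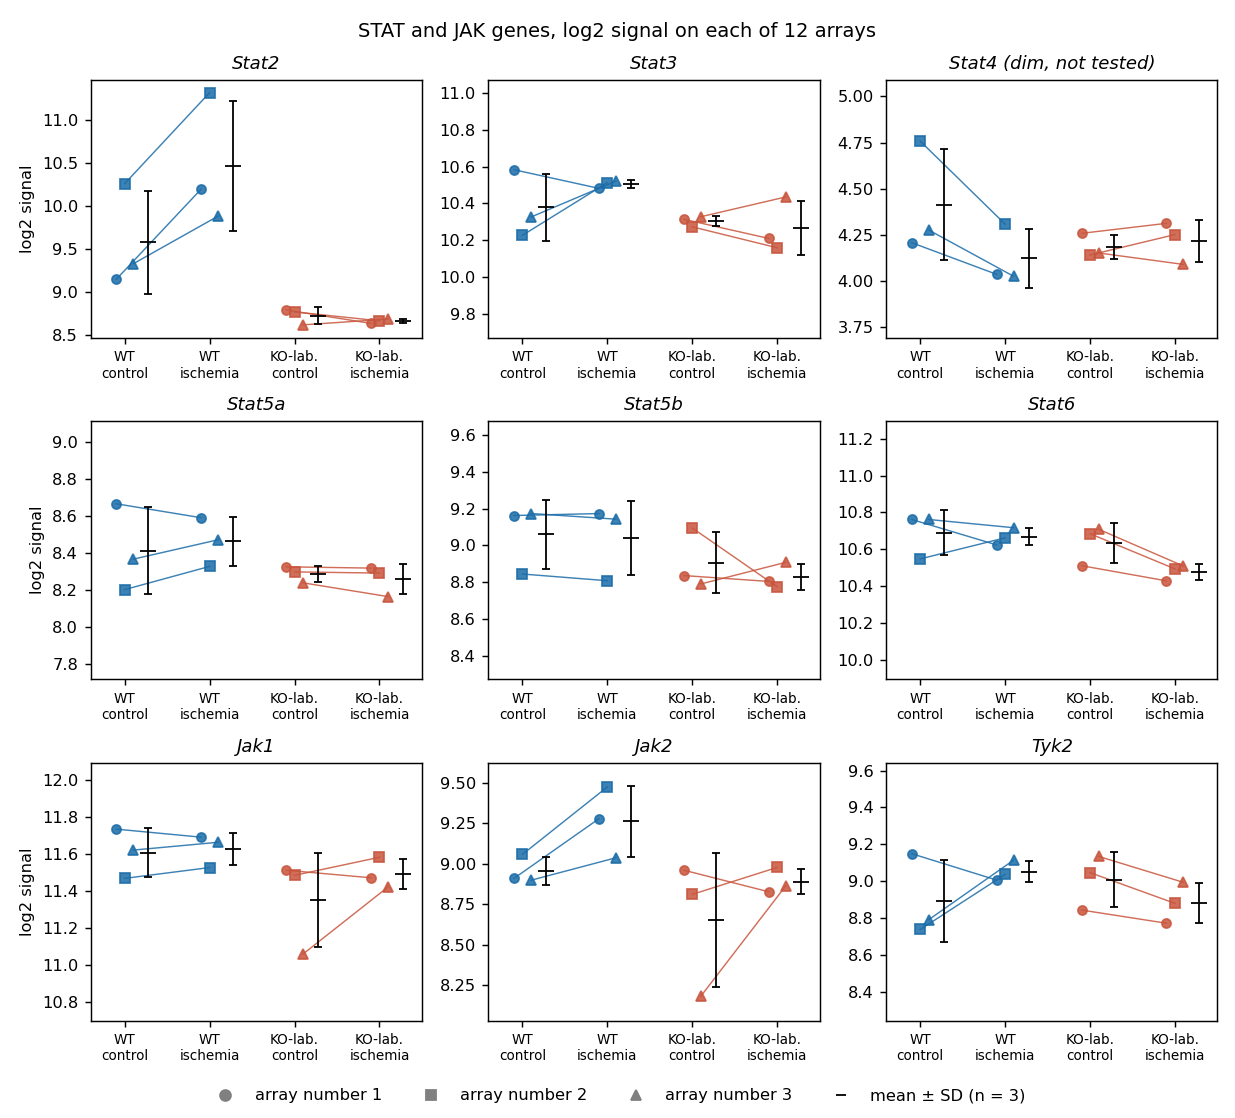
Log2 signal (vertical axis) of each of the 9 members on every array in the 4 groups (horizontal axis), with same-numbered arrays of a genotype joined by a line and the mean ± SD of 3 arrays beside each group; each panel spans its own range. Stat2 lies between 9.15 and 11.32 on the wild-type arrays and between 8.62 and 8.79 on the knockout-labelled ones, and the low Jak1 and Jak2 points belong to knockout-labelled control array 3.

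In the wild type, Stat2 was 1.85-fold higher after ischemia (log2 difference 0.89, SE 0.33, 95% interval 0.18 to 1.60). With 1 mean per group fitted over all arrays, this did not pass (limma adjusted p = 0.285). That fit called 0 of the 8 members tested, against 0.0131% of all 15273 genes. Stat2 was the 1 member with an unadjusted p under 0.05 (0.0180). Of the 15273 genes 2241 had one, a share at least as large as that of the members. Because arrays of 1 number varied jointly inside a genotype, a second fit compared each ischemia array with its same-numbered control by giving every such pair its own level (the paired fit, with a replicate block). The changes of the 3 wild-type pairs were 1.05, 1.06 and 0.55, and in the paired fit Stat2 rose (SE 0.11, 95% interval 0.65 to 1.13, limma adjusted p = 0.000835). The paired fit called 3.73% of all genes, 2.99% as higher, and of the 8 members only Stat2. Stat2 also passed in paired fits without pair 1 (difference 0.81, limma adjusted p = 0.0120), without pair 2 (0.80, 0.0106) and without pair 3 (1.05, 0.000468), and with the wild-type arrays alone (limma adjusted p = 0.00457). Without the block, array 2 moved the value most: the difference was 0.46 without ischemia array 2 and 1.23 without control array 2.

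In the knockout-labelled cells Stat2 gave no detectable change after ischemia. The pair changes were -0.16, -0.10 and 0.067, with a mean difference of -0.064 (SE 0.33, 95% interval -0.77 to 0.64, limma adjusted p = 0.957). This SE comes from 1 spread shared by the 4 groups. The wild-type SDs were 0.60 and 0.76 and the knockout-labelled ones 0.094 and 0.025. The paired fit narrowed the interval to -0.31 to 0.18 (limma adjusted p = 0.786), which does not reach the lower end of the paired wild-type interval. Of all genes 0% passed without the block, where 1334 had an unadjusted p under 0.05, and 0.648% passed in the paired fit. No member passed in either, and 0 of 8 had an unadjusted p under 0.05 without the block.

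The 2 ischemia effects on Stat2 differed by -0.95, taken as the knockout-labelled minus the wild-type effect. This difference did not pass without the block (SE 0.46, 95% interval -1.95 to 0.049, limma adjusted p = 1.00), where 0% of all genes were called and 443 had an unadjusted p under 0.05. It passed in the paired fit (SE 0.16, 95% interval -1.29 to -0.61, limma adjusted p = 0.0209), which called 0.308% of all genes and no other member. The paired call was lost without wild-type pair 1 (limma adjusted p = 0.0916), wild-type pair 2 (0.119), knockout-labelled pair 1 (0.0752) or knockout-labelled pair 2 (0.116). It was kept without wild-type pair 3 (0.00435) or knockout-labelled pair 3 (0.0483). A single spread per gene, shared by both genotypes, enters the paired fit; for Stat2 the wild-type pair changes had an SD of 0.29 and the knockout-labelled ones of 0.12.

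Between genotypes, Stat2 was lower in the knockout-labelled arrays in both conditions, and only the difference after ischemia passed. In control cells the difference was -0.85 (SE 0.33, 95% interval -1.56 to -0.15, limma adjusted p = 0.658), and it was -0.51 without wild-type control array 2. That limma comparison called 0.0589% of all genes and 0 members. Stat2 was the 1 member with an unadjusted p under 0.05 (0.0220), as were 1091 of the 15273 genes. After ischemia Stat2 was 3.49-fold lower in the knockout-labelled cells (log2 difference -1.80, SE 0.33, 95% interval -2.51 to -1.10, limma adjusted p = 0.0253). This comparison called 0.714% of all genes, 0.648% as lower, and Stat2 was the 1 member called. The difference stayed between -1.38 and -2.10 with any 1 array of the 2 groups left out. The call was lost without wild-type ischemia array 1 (limma adjusted p = 0.0541), without knockout-labelled ischemia array 1, 2 or 3 (0.132, 0.0930 and 0.108), and with only the 2 groups in the fit (0.0641). It was kept without wild-type ischemia array 2 (0.0321) and array 3 (0.0159).

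**Figure D2:**
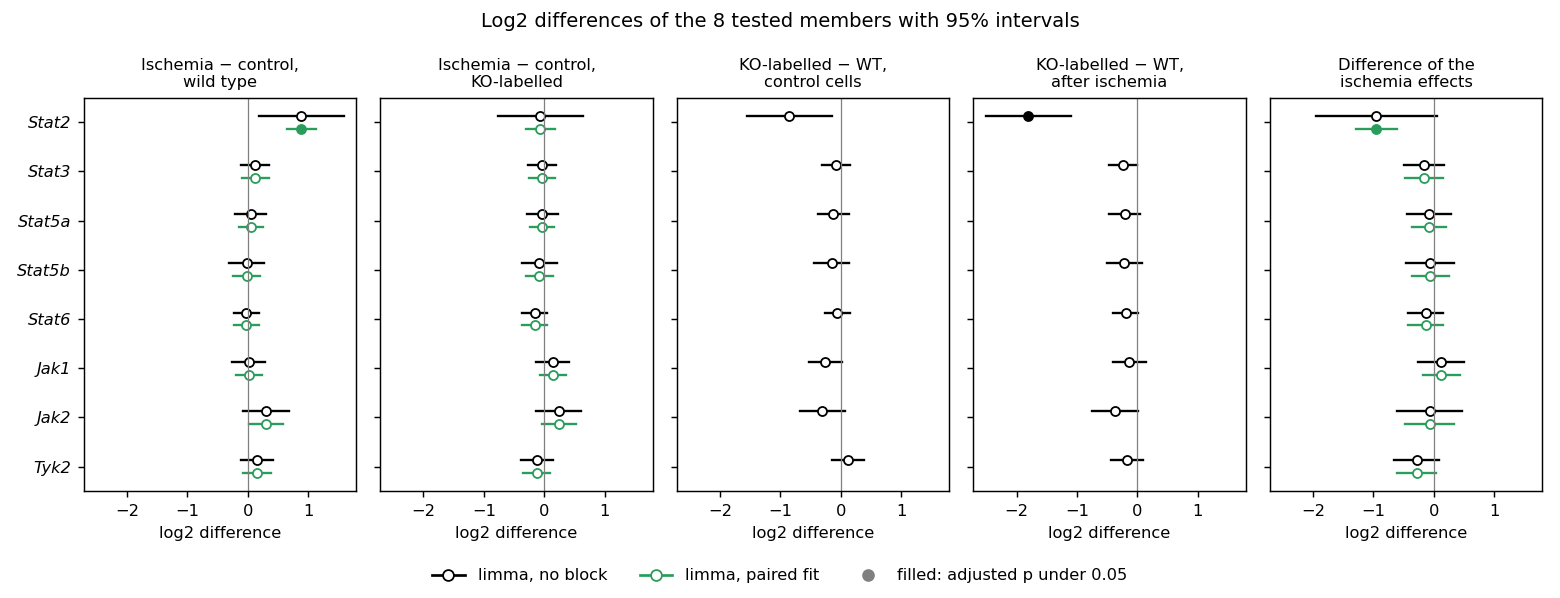
Log2 differences (horizontal axis) with 95% intervals for the 8 tested members (vertical axis) in the 5 comparisons, from limma without a block (black) and from the paired fit (green, ischemia comparisons only); filled points have an adjusted p under 0.05. The filled points are those of Stat2: -1.80 between genotypes after ischemia, and 0.89 and -0.95 in the paired fit.

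The genes that ISGF3 is known to switch on differed between groups in the same direction as Stat2. Of 19 listed targets, 18 were on the array and all 18 were tested. The filter used the mean over all 12 arrays. In knockout-labelled control and ischemia arrays Mx1 averaged 4.62 and 4.51 and Mx2 4.96 and 4.51, below 5.36. Both were thus kept only through their higher wild-type values. Ifit1 averaged 4.85 in knockout-labelled ischemia, and Ifit2 and Ifit3 5.30 and 5.34 in knockout-labelled control. Such low values are not separable from background signal, and the counts below include these genes. In the wild type all 18 were higher after ischemia, with a median difference of 1.09 against 0.012 over all genes. In limma 0 passed without the block, where 15 had an unadjusted p under 0.05, against 2241 of the 15273 genes. In the paired fit 18 rose, against 2.99% of all genes called higher. In the knockout-labelled cells their median difference was -0.11, 6 were above 0 and 12 below, and none passed in either limma fit, with 0 at an unadjusted p under 0.05 without the block. Of all genes 0% passed there without the block and 0.648% in the paired fit. Without the block 1334 of the 15273 had an unadjusted p under 0.05. Between genotypes all 18 were lower in the knockout-labelled arrays. In control cells the median was -1.04, 0 passed and 10 had an unadjusted p under 0.05, against 1091 of the 15273 genes. After ischemia the median was -2.42 and 10 were called lower, against 0.648% of all genes. Of these, Ifit1, which binds viral RNA, differed by -3.96 (SE 0.66, limma adjusted p = 0.0161). Oas1a, of the family that makes the trigger for RNase L, differed by -1.91 (limma adjusted p = 0.0107), and the cell death factor Xaf1 by -2.03 (limma adjusted p = 0.0132). In the paired fit the ischemia effects of 9 targets differed between genotypes, each more negative in the knockout-labelled cells, among them Usp18, an inhibitor of interferon receptor signalling (-1.73, limma adjusted p = 0.000671). For this difference the paired fit called 0.308% of all genes. The interferon targets were listed with the interferon response of these arrays already known, so their direction is not independent support for that of Stat2.

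Array by array, the mean level of the 18 targets followed Stat2. It was 7.14, 9.10 and 7.61 on wild-type control arrays 1, 2 and 3 and 8.82, 10.24 and 8.40 on the wild-type ischemia arrays. It lay between 6.66 and 6.90 on the knockout-labelled control arrays and between 6.59 and 6.76 after ischemia. The correlation of this mean with Stat2 was 0.995 over the 12 arrays, which share their group means, 0.992 over the 6 wild-type arrays and 0.51 over the 6 knockout-labelled arrays, where Stat2 spanned little. The mean level of the 11 microglia markers correlated with Stat2 at 0.78 over the 6 wild-type arrays, where arrays 2 were highest in both measures. Over the 6 knockout-labelled arrays that correlation was 0.42. The part of the marker level in the Stat2 values was not tested. In such culture samples, fewer cells of a type and less RNA per cell cannot be told apart. In fits that left out arrays, the filter on dim genes was applied anew to the arrays kept, so fewer targets could be tested. Without wild-type pair 2, the paired fit still called 12 of 16 tested targets higher after ischemia in the wild type, against 456 of all 15269 genes. Without wild-type ischemia array 2, 8 of 16 were called lower in the knockout-labelled cells after ischemia, against 78 of all 15282 genes. That second count was 0, 5 and 1 of 18 without knockout-labelled ischemia array 1, 2 and 3, with all 18 still lower. Of all genes, 24, 50 and 37 were called lower in those fits.

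**Figure D3:**
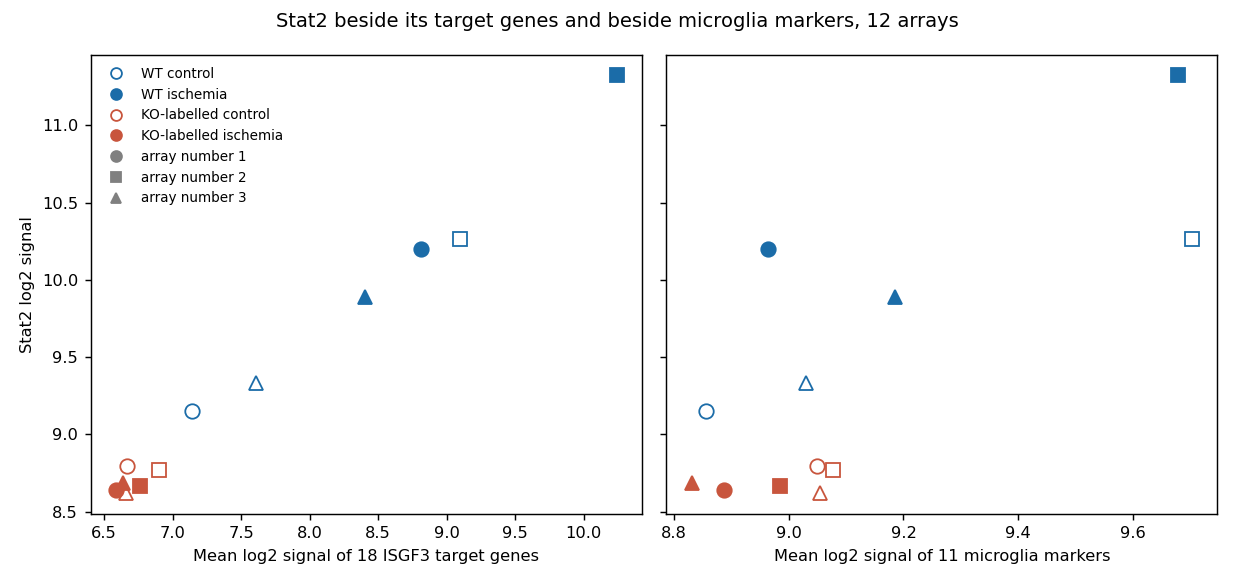
Stat2 log2 signal on each of the 12 arrays (vertical axis) against the mean log2 signal of 18 ISGF3 target genes (left) and of 11 microglia markers (right); colour gives the genotype label, filling the condition and shape the array number. The wild-type arrays spread along a line with the target genes from 7.14 to 10.24, and the 2 wild-type arrays numbered 2 stand apart at the right of the marker panel.

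The genes whose pattern over the 12 arrays was most like that of Stat2, among all tested genes outside the set, were Xaf1 (Pearson r = 0.992), Ifit1 (0.991) and H2-T24 (0.991), a class I-like histocompatibility gene. Xaf1 read 6.746, 7.997 and 7.167 on the wild-type control arrays and 8.18, 9.12 and 7.70 on the wild-type ischemia arrays, with the same array 2 highest in each group. H2-T24 read 8.27, 9.68 and 8.55 in wild-type control and 9.88, 10.77 and 9.41 in wild-type ischemia. Over the 6 wild-type arrays alone the 3 correlations were 0.990, 0.993 and 0.984. Over the 6 knockout-labelled arrays, in which Stat2 spanned 8.62 to 8.79, they were -0.38, 0.73 and 0.80.

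Among the kinases, Jak2, which serves receptors for growth hormone, erythropoietin, GM-CSF and interferon-gamma, was the one higher after ischemia in every wild-type pair. It read 8.91, 9.06 and 8.90 on the wild-type control arrays and 9.28, 9.47 and 9.04 on the wild-type ischemia arrays, and the 2 groups overlapped because ischemia array 3 lay below control array 2. The pair changes were 0.37, 0.42 and 0.14. The difference of 0.31 (SE 0.17, 95% interval -0.071 to 0.69, limma adjusted p = 0.416) did not pass, nor did it in the paired fit (95% interval 0.025 to 0.59, limma adjusted p = 0.176). In the knockout-labelled cells Jak2 read 8.96, 8.81 and 8.18 in control and 8.83, 8.98 and 8.86 after ischemia. Control array 3, the array that stood furthest from all others, was the low one. With it the ischemia difference was 0.24 (limma adjusted p = 0.662), and without it 0.0036.

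Jak1, which pairs with several kinases at interferon and interleukin receptors, showed the same low array. It read 11.74, 11.47 and 11.62 in wild-type control, 11.69, 11.53 and 11.66 in wild-type ischemia, 11.51, 11.49 and 11.06 in knockout-labelled control and 11.47, 11.58 and 11.42 in knockout-labelled ischemia arrays. The wild-type groups overlapped almost fully, with a difference of 0.019 (95% interval -0.25 to 0.29). In control cells Jak1 was lower in the knockout-labelled arrays by -0.26 (SE 0.13, limma adjusted p = 0.705), and by -0.11 without knockout-labelled control array 3. For Jak2 the same comparison gave -0.30 (limma adjusted p = 0.705) and, without that array, -0.070. The genes most like Jak1 were Xist (r = 0.943), Sptbn1 (0.935) and Trps1 (0.935). Those most like Jak2 were Wrn (0.971), Atm (0.967) and Prkdc (0.957), which act in DNA repair, and knockout-labelled control array 3 was the lowest array for each of these 6 genes. For Wrn it read 7.29, where the other 11 arrays lay between 7.87 and 8.35.

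Tyk2, the partner of Jak1 at the type I interferon receptor, had mean ischemia differences of opposite sign in the 2 genotypes, and neither passed. It read 9.15, 8.74 and 8.79 in wild-type control and 9.01, 9.04 and 9.11 in wild-type ischemia, with pair changes of -0.14, 0.30 and 0.32. The knockout-labelled arrays read 8.84, 9.05 and 9.13 in control and 8.77, 8.88 and 8.99 after ischemia, lower in all 3 pairs by 0.072 to 0.17. The differences were 0.16 (95% interval -0.11 to 0.42, limma adjusted p = 0.532) and -0.13 (95% interval -0.39 to 0.14, limma adjusted p = 0.727). The difference of the effects, -0.29, had a limma adjusted p = 1.00 without the block and 0.636 in the paired fit. Its closest genes were Akna (r = 0.906), Tram2 (0.893) and Cabin1 (0.886). Over the 12 arrays Tyk2 and Stat2 correlated at 0.063, Jak1 and Stat2 at 0.33, and Jak2 and Stat2 at 0.76.

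Stat3, the main transducer of interleukin-6 and interleukin-10, stayed within a narrow range. It read 10.58, 10.23 and 10.33 in wild-type control and 10.48, 10.51 and 10.52 in wild-type ischemia. On the knockout-labelled arrays it read 10.31, 10.27 and 10.33 in control and 10.21, 10.16 and 10.44 after ischemia. The wild-type ischemia arrays all lay above the knockout-labelled ischemia arrays, with a difference of -0.24 (95% interval -0.47 to -0.0040, unadjusted p = 0.0467, limma adjusted p = 0.587) that did not pass. Wild-type ischemia changed it by 0.13 (95% interval -0.11 to 0.36), with control array 1 the highest of all. Mapkapk2, a kinase of the p38 pathway, was the gene most like it (r = 0.880), followed by the splicing helicases Dhx8 (0.869) and Dhx38 (0.837).

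Stat5a and Stat5b, which transmit GM-CSF, prolactin and growth hormone signals, lie side by side on chromosome 11, next to Stat3. Their coding sequences are close relatives, and whether probes of one also read the other was not tested. Stat5a read 8.67, 8.20 and 8.37 in wild-type control, 8.59, 8.33 and 8.47 in wild-type ischemia, 8.32, 8.30 and 8.24 in knockout-labelled control and 8.32, 8.29 and 8.16 in knockout-labelled ischemia. Stat5b read 9.16, 8.84 and 9.17, then 9.17, 8.81 and 9.14 in the wild type, and 8.84, 9.09 and 8.79, then 8.80, 8.78 and 8.91 in the knockout-labelled arrays. Array 2 was the lowest of its wild-type group for both genes, opposite to Stat2, and the 2 genes correlated at 0.71 over the 12 arrays. Over the 6 wild-type arrays, Stat5b and the microglia marker mean correlated at -0.96 and Jak1 and that mean at -0.95, whose part in these values was not tested. Over the same arrays the astrocyte marker mean correlated with Stat5b at 0.93, with Jak1 at 0.91 and with Stat5a at 0.84. Its part was not tested either. Over the 6 knockout-labelled arrays the microglia mean correlated with Stat5b at 0.23 and with Jak1 at -0.20. The astrocyte mean correlated there with Stat5b at 0.062, with Jak1 at -0.52 and with Stat5a at -0.63. None of the 5 comparisons passed for Stat5a or Stat5b. The largest, -0.21 for both between genotypes after ischemia, had limma adjusted p-values of 0.712 and 0.736. Stat5a was most like Fgr (r = 0.920), Arhgap26 (0.909) and Acp5 (0.896), and Stat5b most like Met (0.917), Cdkn1b (0.915) and Acvr1b (0.915).

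Stat6, the transducer of interleukin-4 and interleukin-13, was the 1 member whose knockout-labelled groups did not overlap. It read 10.51, 10.68 and 10.71 in control and 10.43, 10.49 and 10.51 after ischemia, a difference of -0.16 (SE 0.094, 95% interval -0.36 to 0.045, limma adjusted p = 0.600; paired fit 0.383). The lowest control value and the highest ischemia value were 10.511 and 10.509, so the groups were separated by very little. Among all genes 14.3% had knockout-labelled groups that did not overlap. In the wild type it read 10.76, 10.55 and 10.76 in control and 10.62, 10.66 and 10.72 after ischemia, a difference of -0.023 (95% interval -0.23 to 0.18). Elf4 (r = 0.934), Plcg2 (0.934) and Kif19a (0.915) were most like it.

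Stat4, the transducer of interleukin-12, was dim, with a mean of 4.23 over the 12 arrays, and was left out of the tests. It read 4.21, 4.76 and 4.28 in wild-type control, 4.03, 4.31 and 4.02 in wild-type ischemia, 4.26, 4.14 and 4.15 in knockout-labelled control and 4.31, 4.25 and 4.09 in knockout-labelled ischemia. All 3 wild-type pairs were lower after ischemia, by 0.17, 0.45 and 0.25. With no filter on dim genes the wild-type difference was -0.29 (limma adjusted p = 0.408; paired fit 0.151), and at this level it is not separable from background signal.

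After ischemia all 8 tested members were lower in the knockout-labelled arrays, with a median difference of -0.21 against 0.010 over all genes, although Stat2 alone passed. All 8 were bright, above 77.1% to 98.0% of the probe sets. Over the genes kept by a filter at the 50th percentile of probe set means, the median was -0.017. For 6 of the 8 the wild-type and knockout-labelled ischemia groups did not overlap (Stat2, Stat3, Stat5a, Stat6, Jak2 and Tyk2), against 16.5% of all genes. In control cells Stat2 was the 1 member of 8 whose genotypes did not overlap, against 9.89% of all genes, and 7 of 8 were below 0. In the wild type 0 of 8 had groups that did not overlap, against 21.7% of all genes, and 6 of 8 were above 0 with a median of 0.089. Over all genes the median of that ischemia comparison was 0.012, and it was 0.068 over genes kept by the 50th-percentile filter. The largest differences after Stat2 were those of Jak2 (-0.37, 95% interval -0.75 to 0.0052, limma adjusted p = 0.610) and Stat3. These comparisons share arrays, and the 5 comparisons of a member are not independent of each other.

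By the order of group means, Stat2 ran from wild-type ischemia through wild-type control to the knockout-labelled groups. The gap between its first pair of neighbouring groups (0.89) and between wild-type and knockout-labelled control (0.85) exceeded the larger SD of each pair of groups, while the gap between the knockout-labelled groups (0.064) did not. Jak2 had its highest mean in wild-type ischemia (9.26 ± 0.22, SD, n = 3), above wild-type control (8.96 ± 0.089) by more than the larger SD. For Stat6 the gap between knockout-labelled control (10.63 ± 0.11) and ischemia (10.48 ± 0.043) exceeded it as well. No other neighbouring groups of any member differed by more than the larger of their SDs.

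Upstream of the kinases stand the cytokine ligands. Of 27 listed ligands 26 were on the array and 14 were bright enough to test, while 12, among them Ifnb1, Il6 and Il10, lay at or below 5.36. In wild-type ischemia 3 of the 14 were above 0 and 11 below, and none passed in limma without the block. There 3 had an unadjusted p under 0.05, against 2241 of the 15273 genes. Il15, which sustains natural killer cells, rose in the paired fit (0.71, limma adjusted p = 0.00519), the 1 of 14 ligands called there, where 3.73% of all genes were called. The other ligands named by the smallest p, the granulocyte factor Csf3 (-0.55, paired limma adjusted p = 0.0516), Il4 (-0.27, 0.137) and Il12a (-0.24, 0.203), did not pass. After ischemia Ebi3, the shared chain of interleukin-27 and interleukin-35, was the 1 ligand called between genotypes and was lower in the knockout-labelled cells (-1.15, SE 0.22, limma adjusted p = 0.0328). That comparison called 0.714% of all genes.

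Of 37 receptor chains 33 were on the array and 26 were tested. In the wild type 19 were above 0 after ischemia and 7 below, with a median of 0.10 against 0.012 over all genes. None passed in limma without the block, where 6 had an unadjusted p under 0.05, against 2241 of the 15273 genes. In the paired fit 4 chains were higher: Il15ra (0.46, limma adjusted p = 0.0203), Il12rb2 (0.53, 0.0219), Il13ra1 (0.50, 0.0186) and Il21r (0.49, 0.0148), the last named because it completes the count. Of all genes 2.99% were called higher in that fit. Il13ra1, a chain of the interleukin-4 and interleukin-13 receptor, also rose in the knockout-labelled cells in the paired fit (0.81, limma adjusted p = 0.00535). It was the 1 receptor chain called there, where 0.648% of all genes were called. After ischemia Il10ra, the ligand-binding chain for interleukin-10, was lower in the knockout-labelled cells (-0.84, SE 0.13, limma adjusted p = 0.0132), and the 25 other chains did not pass. That genotype comparison called 0.714% of all genes.

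All 20 inhibitors were tested, and the feedback proteins of the pathway mostly did not pass. Without the block none of the 20 passed for ischemia in the wild type, where 0.0131% of all genes did. In the wild type the paired fit called 2 higher, the phosphatase Ptpn2 (0.43, limma adjusted p = 0.0411) and Usp18 (1.48, 6.12e-05), which also stands in the interferon target list. Of all genes it called 2.99% higher. In the knockout-labelled cells Ptpn2 was at 0.46 (paired limma adjusted p = 0.0618) and Usp18 at -0.25 (0.322), and the 2 ischemia effects on Ptpn2 differed by 0.039 (95% interval -0.28 to 0.36 in the paired fit). Socs1, which blocks Janus kinases, was at -0.29 in the wild type (paired limma adjusted p = 0.205) and -0.33 in the knockout-labelled cells (0.207), and the phosphatase Ptpn6 was at 0.23 (0.181). After ischemia Usp18 was the 1 of 20 called lower in the knockout-labelled cells (-2.73, SE 0.49, limma adjusted p = 0.0241), against 0.648% of all genes called lower. Among 13 partners and adaptors, all tested, the paired fit called the Stat2 partner Irf9 (0.46, limma adjusted p = 0.0228) and the STAT-binding Nmi (0.82, 0.00239) higher in the wild type, against 2.99% of all genes. Without the block none of the 13 passed in that comparison. Irf9 was lower in the knockout-labelled cells after ischemia (-1.39, SE 0.21, limma adjusted p = 0.00828), the 1 of 13 called there, where 0.714% of all genes were called. The coactivator Ncoa1 (0.21, paired limma adjusted p = 0.206) and the adaptor Stam2 (0.11, 0.490) did not pass.

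Downstream lists of the other STATs are read against the same 3.73% of all genes called in the paired wild-type fit. Without the block no target of these lists passed for ischemia in the wild type, where 0.0131% of all genes did. Of 17 tested STAT3 targets, 11 were above 0 in the wild type with a median of 0.040, and the paired fit called Myc, a growth regulator (0.44, limma adjusted p = 0.0408). In the knockout-labelled cells Myc was at 0.37 (paired limma adjusted p = 0.109), and its ischemia effects differed by -0.070 (95% interval -0.40 to 0.26 in the paired fit). Icam1 (0.35), Il1rn (0.42) and Mcl1 (0.18) did not pass in either fit. After ischemia the median of the 17 STAT3 targets between genotypes was -0.18. Bcl3 was the 1 called, lower in the knockout-labelled cells (-0.67, SE 0.12, limma adjusted p = 0.0231), where 0.714% of all genes were called. Of 9 STAT5 targets none passed in any comparison in either limma fit. Without the block Id1 was the 1 with an unadjusted p under 0.05, in knockout-labelled ischemia (-0.21), where 1334 of the 15273 genes had one. Socs2 (0.29), Cish (-0.18), Id1 (-0.10) and Osm (-0.099) had the smallest p in the wild type. Of 13 tested STAT6 targets the paired fit called 2 higher in the wild type, Arg1, an arginine-degrading enzyme of alternatively activated macrophages (0.67, limma adjusted p = 0.00487), and the secreted chitinase-like Chil3 (1.196, 0.000278), while Ccl17 (-0.30) and Klf4 (-0.22) did not pass. In the knockout-labelled cells the paired differences of Arg1 (0.23, limma adjusted p = 0.273) and Chil3 (0.47, 0.103) did not pass, and the differences of their ischemia effects did not pass either (paired limma adjusted p = 0.481 and 0.216).

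**Figure D4:**
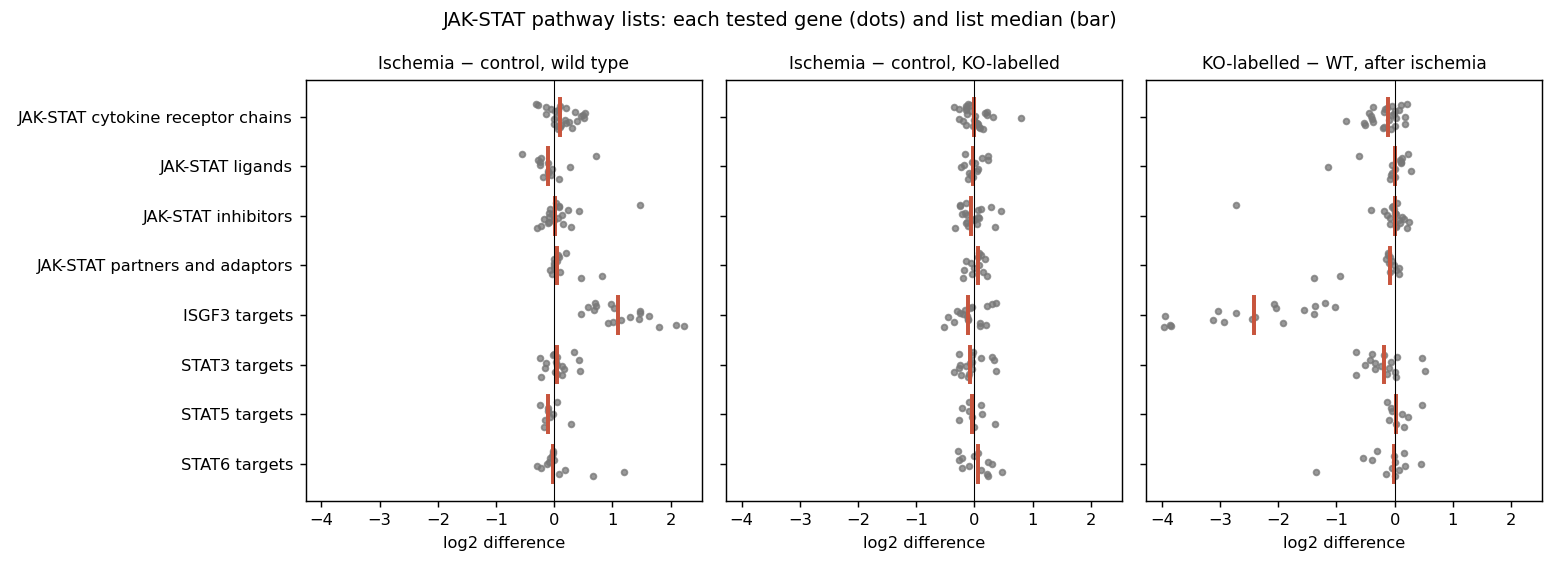
Log2 difference (horizontal axis) of every tested gene (dots) of 8 JAK-STAT lists (vertical axis), with the list median as a bar, for ischemia against control in each genotype and for knockout-labelled against wild type after ischemia. The interferon (ISGF3) target list has medians of 1.09, -0.11 and -2.42, while the receptor list, for example, has a median of 0.10 in the wild type.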

How the data were processed

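RNA of 12 samples was measured on 1 array each. Per the submitters' processing notes, the authors summarised the signals by RMA in Affymetrix Expression Console 1.1, which gave deposited log2 signals from 1.25 to 14.5 with array medians of 6.30 to 6.40. The upper quartile was 8.13 to 8.17 on wild-type control arrays and 8.24 to 8.25 on wild-type ischemia arrays, so bright genes read slightly higher in the second group. The annotation gave 21789 of 35557 probe sets 1 symbol, 1621 several and left 12147 unlisted; 21698 symbols were updated through Entrez identifiers. The sources used here do not give the genome build of this annotation.

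The brightest probe set stood for a gene. Genes at or below the 30th percentile of probe set means (5.36 log2) were left out, leaving 15273. Using limma 3.58.1 (R 4.3.3), 4 group means were estimated jointly from the 12 arrays, with Benjamini-Hochberg adjustment over all genes and calls at an adjusted p under 0.05. Same-numbered arrays correlated in their deviations from group means by 0.48 to 0.73 (wild type) and 0.32 to 0.49 (knockout-labelled), all above 0.1, and by -0.33 to 0.33 between genotypes. Some differently numbered arrays of a genotype also passed 0.1 (wild-type control 1 with ischemia 3 at 0.40 and control 3 with ischemia 1 at 0.12, knockout-labelled control 1 with ischemia 2 at 0.22). The numbers were thus taken to pair arrays within a genotype, which rests on the data and not on the labels. The number of arrays limits the precision, and depth as counted in sequencing does not apply.

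The members and the gene lists were chosen with earlier results of these data known. From each pathway list, up to 4 genes with the smallest p in the wild-type ischemia comparison are named, and the 3 most alike genes for each member; Il21r, Ebi3, Bcl3 and Il10ra between genotypes complete counts of calls and were named after their values were seen. The closing section gives the alternatives tried.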

Additional observations from a re-analysis of the deposited data

Results flagged for a closer look

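The ischemia effect on Stat2 differed between the genotypes by a test of the difference itself, at -0.95 on the log2 scale in the limma paired fit (knockout-labelled minus wild type). All 3 wild-type pairs were higher after ischemia and 1 of 3 knockout-labelled pairs was, and the same difference did not pass without the block. The paired call was also lost in most fits that left out 1 pair. The pairing itself rests on the data and not on the labels.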

How the results depend on the processing

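The count of members called was 0 without the block and 1 with the replicate block within genotype for ischemia in the wild type and for the difference of the effects, each time Stat2. Between genotypes after ischemia it was 1, 0 with only the 2 groups compared, and 0 to 1 when each array was left out in turn. In the paired fits chosen after seeing the data, the wild-type count was 1 without any 1 pair, with that genotype alone and with no filter on dim genes, and the count for the difference of the effects was 1 without wild-type pair 3 or knockout-labelled pair 3 and 0 otherwise (limma adjusted p = 0.0501 with no filter). The lost calls came in fits with fewer arrays, except the one with no filter, which tested more genes. Other fits that left out 1 array or 1 pair kept the call, and why calls were lost was not tested. Of 763 member values under alternatives, 715 kept their direction and side of the threshold, 9 values of Stat2 crossed the threshold to a call and 5 from one, and 34 turned direction, none of them of Stat2, Stat4 or Tyk2. Quantile normalization turned the wild-type ischemia differences of Stat5a (-0.055) and Jak1 (-0.073), and median centring those of Stat5b (0.041) and Stat6 (0.037). Leaving out 1 array gave, in wild-type ischemia, -0.053 to 0.18 for Stat5a, -0.051 to 0.083 for Jak1, -0.13 to 0.098 for Stat5b and -0.094 to 0.013 for Stat6. In knockout-labelled ischemia it gave -0.14 to 0.016 for Stat5b, -0.0067 to 0.22 for Jak1, -0.12 to 0.018 for Stat3 and -0.060 to 0.018 for Stat5a. Between genotypes in control cells it gave -0.15 to 0.029 for Stat3, -0.23 to 0.0029 for Stat5a and -0.13 to 0.0062 for Stat6. For the difference of the effects it gave -0.21 to 0.024 for Stat5a, -0.18 to 0.049 for Stat5b, -0.30 to 0.085 for Jak2 and -0.026 to 0.20 for Jak1. Paired fits without 1 pair put the wild-type difference of Stat6 at 0.035 without wild-type pair 1 and of Jak1 at -0.00054 without wild-type pair 2, the difference of the effects for Jak2 at 0.12 without knockout-labelled pair 1 and for Stat5b at 0.062 without knockout-labelled pair 2, and the knockout-labelled differences of Stat3 at 0.0016 and Stat5b at 0.043 without that pair. A replicate block over all arrays changed no count of members called. The 3 arrays per group limit what can be told for members other than Stat2.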
